A study of Mus musculus with 6 samples.

Results

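The 33 rows that the deposited gene tables place on the mitochondrial chromosome (MT) were examined in mouse oocytes and 2-cell (2C) embryos with and without maternal Kdm1a. They were chosen by their chromosome alone, from the 47728 gene rows of each of 4 tables, and every table held all 33. Of these rows, 6 carry the name of a protein-coding gene, 1 is the ribosomal RNA mt-Rnr1, 20 are tRNAs, and 6 have other names. GENCODE M21 places 37 genes on this chromosome, 13 protein-coding, 2 rRNA and 22 tRNA, and 27 of them have a row under their own name or an alias. The genes mt-Co1, mt-Nd1, mt-Nd2, mt-Nd4, mt-Nd4l, mt-Nd6, mt-Atp8, mt-Rnr2, mt-Tl1 and mt-Tm have none and were not analysed here.

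The mutant groups were ovulated oocytes of Kdm1a fl/fl females that carry Zp3-Cre (Kdm1aZp3 oocytes, 3 libraries), and 2C embryos of embryonic day 1.5 from such females and wild type CB6 males (Kdm1aZp3 M-Z+ embryos, 3 libraries). Zp3-Cre acts in growing oocytes, so the embryos lack the maternal supply and keep an intact paternal Kdm1a allele. The embryos of a litter were pooled. The labels give these females as fl/fl with Cre, and the study also writes them as fl/Δ with Cre. The references were M+Z+ 2C embryos and control oocytes, both from libraries of an earlier study, which the series text calls wild type and the study calls Kdm1a fl/fl. Mutant and control groups thus differ in genotype and in the study that made the libraries, which cannot be told apart. RNA of the mutant groups was amplified with random hexamer and poly-dT priming, so RNAs without a poly(A) tail could be copied too. The kit for the final library differed between the mutant embryos and the mutant oocytes. Fewer cells and less RNA per cell cannot be told apart in these pooled samples.

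Each table gives 1 normalized mean per group, made by the authors, and no value per library. No difference has a replicate check here, and no p-value, SD or n is given. Library depth is unknown here. A 4-fold difference on the scale log2(mean + 10), in rows where either group mean reached 50, serves as a fixed bound in place of a test, and all log2 ratios below are on that scale. Means of different tables are on different scales, so values set side by side come from 1 table.

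The mammalian mitochondrial genome is a small circle that is transcribed along both strands into long precursors. The tRNAs lie between the other genes, and their excision releases the rRNAs and mRNAs. The mRNAs encode core subunits of complexes I, III, IV and V of the respiratory chain and ATP synthase, whose other subunits, like the whole of complex II, come from nuclear genes. Oocytes hold a large stock of mitochondria that the embryo inherits, and mitochondrial transcription is low in the egg and starts again during cleavage.

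Several of these genes have near-identical nuclear copies, which bear on how reads could be assigned. On GRCm38, the build of the annotation, mt-Atp6 lies at chrM:7927-8607 on the plus strand and mt-Nd3 at chrM:9459-9806, both as uninterrupted genes. Their closest nuclear transcripts, Gm10925 and Gm28438, are unprocessed pseudogenes on chromosome 1. The first 60 bases of each pair are shown, because the sequences decide whether a 50-base read can tell them apart. In the first pair capitals mark the 43 bases of mt-Atp6 that also lie in mt-Atp8. In the second pair they mark the substitution T3C, counted from the first base of mt-Nd3, with the mitochondrial base first.
mt-Atp6 (chrM:7927-7986, plus strand): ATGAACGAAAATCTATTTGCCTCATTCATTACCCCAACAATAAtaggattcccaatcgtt
Gm10925 (chr1:24614592-24614651, minus strand): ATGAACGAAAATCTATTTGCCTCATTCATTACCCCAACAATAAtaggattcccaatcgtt
mt-Nd3 (chrM:9459-9518, plus strand): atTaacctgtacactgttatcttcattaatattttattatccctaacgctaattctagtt
Gm28438 (chr1:24613060-24613119, minus strand): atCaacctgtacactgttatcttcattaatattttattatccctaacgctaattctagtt
Over all aligned bases, mt-Atp6 and Gm10925 had 0 mismatches in 678 bases, and mt-Nd3 and Gm28438 had 1 in 345. The same comparison gave 0 mismatches in 783 bases for mt-Co3 with Gm28437 and 0 in 681 bases for mt-Co2 with Gm28661.

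Counted in 50-base windows, 635 of the 635 windows of mt-Co2, 734 of 735 of mt-Co3, 629 of 632 of mt-Atp6 and 293 of 299 of mt-Nd3 also occur in an annotated nuclear transcript. For mt-Nd5 the number was 135 of 1775, and for mt-Cytb, mt-Rnr1 and the tRNAs it was 0. The authors weighted a read down by the square of the number of its loci, so a row with an exact copy can be listed too low and shares its reads with that copy. The table entries show this for Atpase6, the files' name for mt-Atp6, which is also listed on chromosome 1. The chromosome 1 row had means of 142 in Kdm1aZp3 oocytes and 1370 in control oocytes, and the MT row of Atpase6 had 141 in Kdm1aZp3 oocytes and 1365 in control oocytes. Reads of this pair cannot be assigned to either locus. In contrast, the chromosome 1 row of Gm10222 stood at 259 in Kdm1aZp3 oocytes and 776 in control oocytes, against 5004 in Kdm1aZp3 oocytes and 28046 in control oocytes for the MT row of Gm10222. The annotation places Gm10222 on chromosome 1 only (chr1:24612407-24612700), where it holds 245 of the 248 windows of mt-Nd4l.

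To check the labels, Kdm1a was read first. Its mean was 6.37 in Kdm1aZp3 oocytes and 921 in control oocytes, and 14.5 in M-Z+ embryos and 1254 in M+Z+ embryos. Of the oocyte markers (zona pellucida, growth factor and maternal effect genes), 10 of 10 had a sufficient mean in all 4 tables. Either group of a table could supply that mean, so this count does not check which column holds which group. Columns named only a and b in the tables with 2C embryos were checked by proportion, because the study's own legends give these letters in the opposite order. The table of oocytes names its columns. The ratio of column a, in the table of M-Z+ embryos and control oocytes, to the named control oocyte column was 1.48 to 1.56. This range is the 5th to 95th percentile over 8151 rows. The control oocyte columns of 2 such tables kept a ratio of 0.656 to 0.669 (8998 rows), and the columns of control and mutant 2C embryos in the tables that hold each kept 0.680 to 0.697 and 0.970 to 0.996, whereas control against mutant 2C embryos ranged over 0.139 to 9.06.

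The share of all summed means that lay on the MT rows differed widely between the groups. It was 4.92% in M-Z+ embryos and 34.6% in M+Z+ embryos, and 0.822% in Kdm1aZp3 oocytes and 2.05% in control oocytes. A share within a column does not depend on the scaling between groups. In M+Z+ embryos 9 of the 10 rows with the highest means were MT rows, against 3 of 10 in M-Z+ embryos, where mt-Rnr1 ranked 3rd. In each oocyte group 1 of the 10 highest rows was on MT, and it was mt-Rnr1, at rank 8 in Kdm1aZp3 oocytes and rank 9 in control oocytes.

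**Figure D1:**
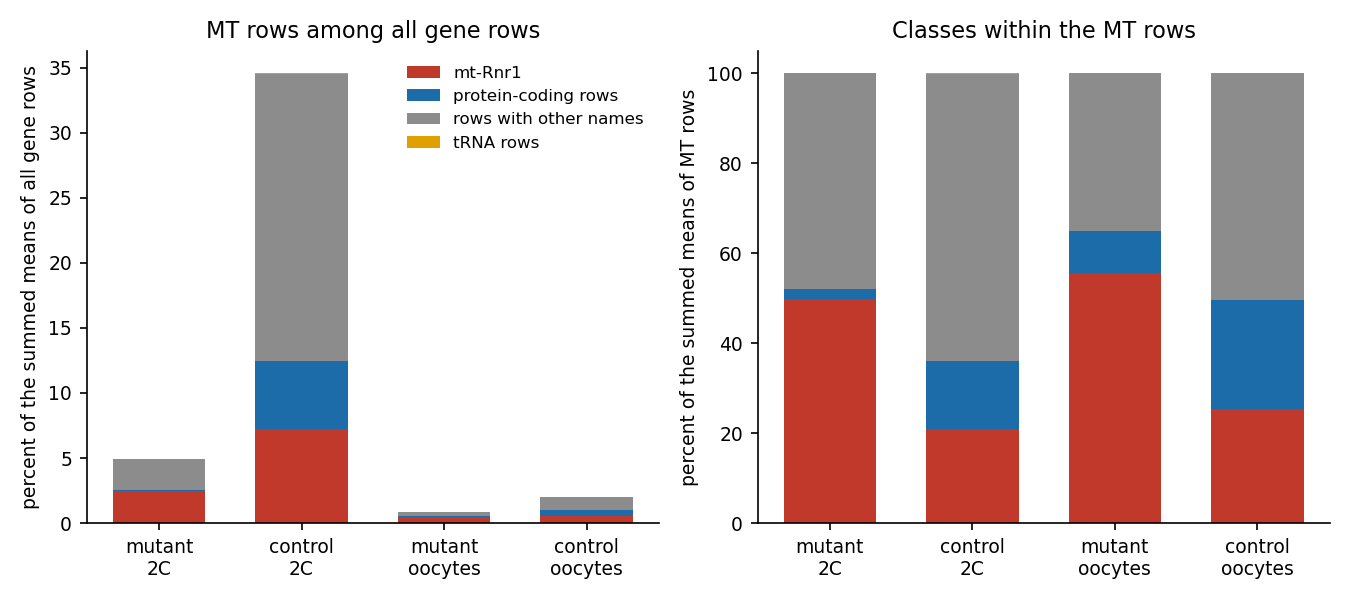
Percent of the summed means of all gene rows that lies on MT rows (left) and percent of the MT sum in each class of row (right), by group, from the tables of mutant over control. Bars are sums of the authors' group means with no error; MT rows held 4.92% in M-Z+ embryos and 34.6% in M+Z+ embryos, and the tRNA rows are too small to be seen in any bar.

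The makeup of the MT rows differed as well. mt-Rnr1 alone held 49.9% of the MT sum in M-Z+ embryos and 20.9% in M+Z+ embryos, and 55.7% in Kdm1aZp3 oocytes and 25.3% in control oocytes. The 6 protein-coding rows held 2.12% in M-Z+ embryos and 15.1% in M+Z+ embryos, and 9.35% in Kdm1aZp3 oocytes and 24.3% in control oocytes. The rows with other names took most of the rest, with 48.0% in M-Z+ embryos, 63.9% in M+Z+ embryos, 35.0% in Kdm1aZp3 oocytes and 50.3% in control oocytes. tRNA rows held 0.0118% in M-Z+ embryos, 0.0799% in M+Z+ embryos, 0.0150% in Kdm1aZp3 oocytes and 0.0350% in control oocytes.

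In 2C embryos, M-Z+ embryos were set against M+Z+ embryos, which differ in genotype and in the study that made the libraries. All 6 protein-coding rows were at least 4-fold lower in M-Z+ embryos, and mt-Rnr1 lay at the bound. Of 29 MT rows with a sufficient mean, 28 lay past the bound in the lower direction and 0 in the higher one, while 28.1% of all 11777 gene rows lay past it lower and 18.1% higher. Of these 29 rows, 16 are tRNAs that reached the mean through M+Z+ embryos alone, so the filter fixed their direction and the count is a description. Of the 13 MT rows that reached 50 in both groups, none a tRNA (a filter added after seeing the data), 13 were lower, beside 12.8% lower and 11.0% higher of the 7093 gene rows that did so. The median log2 ratio was -6.10 over the protein-coding MT rows and -0.22 over all gene rows.

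Cytb, which encodes the cytochrome b subunit of complex III, had a mean of 9161 in M-Z+ embryos and 643584 in M+Z+ embryos (log2 ratio -6.13). Cytb, or mt-Cytb, has no nuclear copy by the window count. In complex IV, the terminal oxidase, Cox2 (the files' name for mt-Co2, subunit 2) stood at 1930 in M-Z+ embryos and 113678 in M+Z+ embryos (log2 ratio -5.87), and mt-Co3 (subunit 3) at 1627 in M-Z+ embryos and 101881 in M+Z+ embryos (log2 ratio -5.96). Atpase6, which encodes subunit a of the ATP synthase (complex V), had 617 in M-Z+ embryos and 51331 in M+Z+ embryos (log2 ratio -6.36). The ratios of these rows lay between -6.36 and -5.87. Cytb alone among them has no nuclear copy, and the part of the copies in these ratios was not tested.
Complex I, the NADH dehydrogenase, was represented by mt-Nd5, with 309 in M-Z+ embryos and 22244 in M+Z+ embryos (log2 ratio -6.12), and by mt-Nd3, with 59.9 in M-Z+ embryos and 4724 in M+Z+ embryos (log2 ratio -6.08). By complex, the values were -6.10 for complex I and -5.92 for complex IV (medians of 2 rows each). They were -6.13 for complex III and -6.36 for complex V (1 row each). So few rows do not allow the complexes to be compared. mt-Rnr1, the rRNA of the small subunit of the mitochondrial ribosome, differed far less, with 322158 in M-Z+ embryos and 1294210 in M+Z+ embryos. Its log2 ratio of -2.01 was just past the bound, and it lay within the bound at -1.79 once centred on the median of all gene rows, which left 27 lower MT rows.

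**Figure D2:**
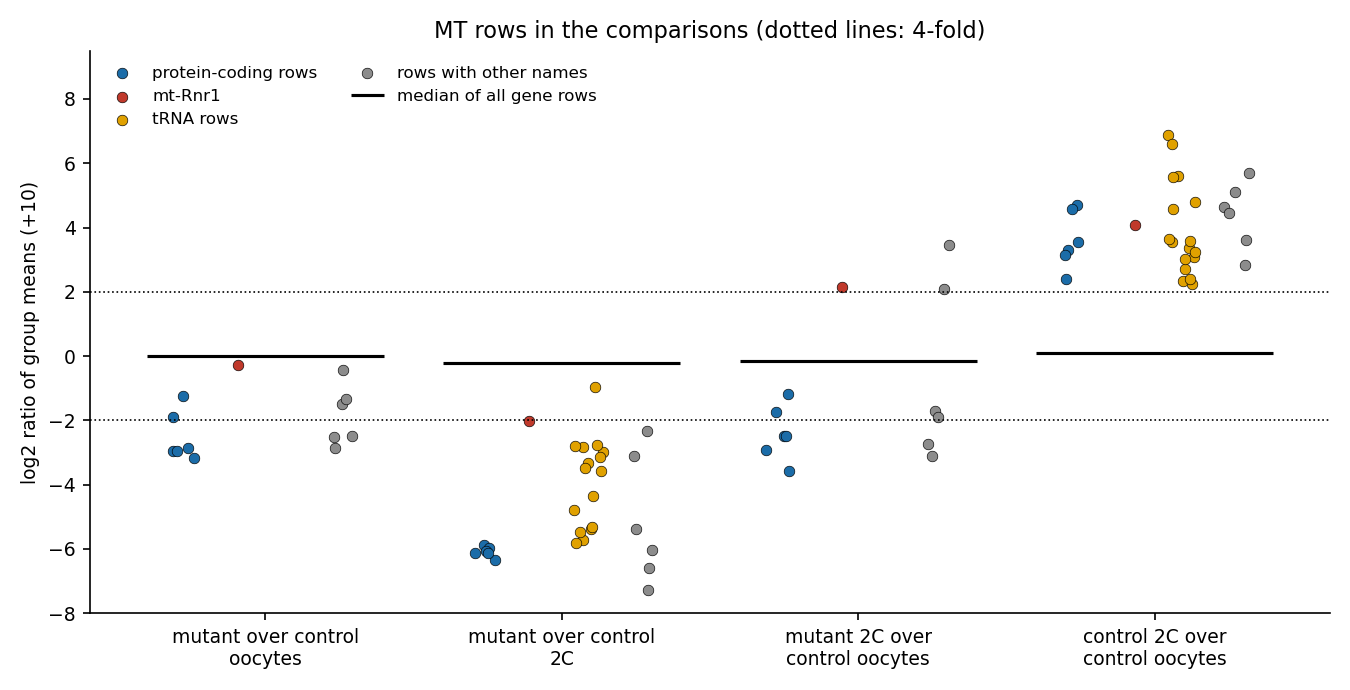
Log2 ratio of group means (with 10 added to each) of the MT rows where either group mean reached 50, in the 4 comparisons; each point is a row, coloured by class, the black line is the median over all gene rows and dotted lines mark 4-fold. In 2C embryos the protein-coding rows lie between -6.36 and -5.87, and mt-Rnr1 lies at -2.01.

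The same contrast in the ratio of mt-Rnr1 to each mRNA is free of the scaling between groups. mt-Rnr1 exceeded Cytb 35.2-fold in M-Z+ embryos and 2.01-fold in M+Z+ embryos. Over the 6 protein-coding rows, this ratio was 14.7-fold (Cox2) to 20.7-fold (Atpase6) higher in M-Z+ embryos than in M+Z+ embryos. In oocytes mt-Rnr1 exceeded Cytb 8.69-fold in Kdm1aZp3 oocytes and 1.43-fold in control oocytes, and over the 6 rows the ratio was 1.96-fold (mt-Nd5) to 7.99-fold (Atpase6) higher in Kdm1aZp3 oocytes. It was higher in the mutant for 6 of 6 rows at both stages. The 6 ratios of a group share the same mt-Rnr1 mean, so they are not independent of each other.

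**Figure D3:**
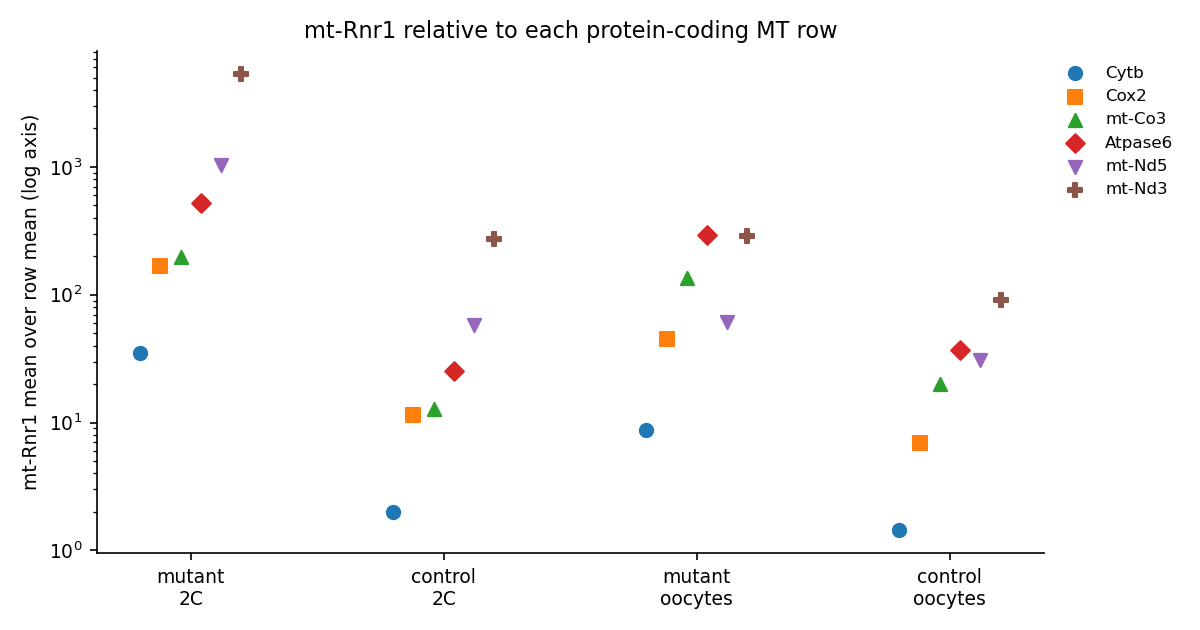
Mean of mt-Rnr1 divided by the mean of each protein-coding MT row within a group, on a log axis, from the tables of mutant over control. Each point is a ratio of the authors' group means with no error; for Cytb it was 35.2 in M-Z+ embryos, 2.01 in M+Z+ embryos, 8.69 in Kdm1aZp3 oocytes and 1.43 in control oocytes.

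Kdm1aZp3 and control oocytes, which also differ in genotype and in study, were compared in the same way. In Kdm1aZp3 oocytes 7 of 13 MT rows with a sufficient mean lay past the bound in the lower direction and 0 in the higher one, against 2.57% lower and 4.24% higher of all 9094 gene rows. The median log2 ratio was -2.92 over the 6 protein-coding rows and -0.01 over all gene rows.
Cytb had 4768 in Kdm1aZp3 oocytes and 34992 in control oocytes (log2 ratio -2.87). Both rows of complex IV were alike, with 922 in Kdm1aZp3 oocytes and 7241 in control oocytes for Cox2 (log2 ratio -2.96), and 308 in Kdm1aZp3 oocytes and 2485 in control oocytes for mt-Co3 (log2 ratio -2.97). Atpase6 had a log2 ratio of -3.19. The named rows of complex I, mt-Nd3 and mt-Nd5, did not reach 4-fold. The other complex I genes of MT have no row under their own name, so complex I as a whole was not compared. The MT row of Gm10222 lay past the bound (log2 ratio -2.48), and whether it holds reads of mt-Nd4l was not tested.
mt-Nd3 stood at 143 in Kdm1aZp3 oocytes and 555 in control oocytes (log2 ratio -1.89), and mt-Nd5 at 679 in Kdm1aZp3 oocytes and 1615 in control oocytes (log2 ratio -1.24). mt-Rnr1 stood at 41435 in Kdm1aZp3 oocytes and 50145 in control oocytes, a log2 ratio of -0.28. With the 4 rows left out whose gene shares over 90% of its windows with nuclear transcripts, an alternative chosen after seeing the data, 4 rows lay past the bound and the median over Cytb and mt-Nd5 was -2.06.

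The normal transition was read from M+Z+ embryos over control oocytes. Of 30 MT rows with a sufficient mean, 30 were at least 4-fold higher in M+Z+ embryos and 0 lower, beside 26.8% higher and 20.9% lower of all 12704 gene rows. Again 17 of the 30 are tRNAs that reached the mean through M+Z+ embryos alone and could come out in no other direction. Of the 13 MT rows that reached 50 in both groups, 13 were higher, beside 12.5% higher and 16.2% lower of 8029 gene rows. The median over the protein-coding rows was 3.44, and over all gene rows 0.09. The highest ratio among the mRNAs was that of mt-Co3, at 147696 in M+Z+ embryos and 5698 in control oocytes (log2 ratio 4.69), and the lowest that of mt-Nd3, at 6842 in M+Z+ embryos and 1288 in control oocytes (log2 ratio 2.40). Cytb stood at 933245 in M+Z+ embryos and 79091 in control oocytes (log2 ratio 3.56). In the same table the log2 ratio was 4.56 for Atpase6, 3.31 for Cox2 and 3.13 for mt-Nd5. mt-Rnr1 was close to these rows, with 1878480 in M+Z+ embryos and 111740 in control oocytes (log2 ratio 4.07).

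M-Z+ embryos over control oocytes gave a split picture. Of 13 MT rows with a sufficient mean, 3 were at least 4-fold higher and 6 at least 4-fold lower in M-Z+ embryos, beside 10.8% higher and 13.9% lower of all 10313 gene rows. mt-Rnr1 was higher, with 328355 in M-Z+ embryos and 74281 in control oocytes (log2 ratio 2.14). The protein-coding rows had lower means in M-Z+ embryos without exception, with a median of -2.49 against -0.15 over all gene rows. The rows past the bound were mt-Nd3 at -3.59, mt-Nd5 at -2.91, Cytb at -2.50 and Cox2 at -2.48, while Atpase6 at -1.73 and mt-Co3 at -1.19 were within it. Cytb stood at 9302 in M-Z+ embryos and 52558 in control oocytes, and mt-Nd3 at 61.7 in M-Z+ embryos and 853 in control oocytes. This comparison, the one of M+Z+ embryos and the one of Kdm1aZp3 oocytes share the control oocytes.

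Levels between genes were compared per kb of annotated gene length, although the extent of each row is not given in the files. In M+Z+ embryos, in the table of M-Z+ over M+Z+ embryos, the mean per kb was highest for mt-Rnr1 at 1355190, followed by Cytb at 562574, Cox2 at 166196, mt-Co3 at 129951, Atpase6 at 75376, mt-Nd3 at 13575 and mt-Nd5 at 12195. The order in M-Z+ embryos was the same, at 337338 per kb for mt-Rnr1, 8008 for Cytb, 2822 for Cox2, 2076 for mt-Co3, 906 for Atpase6, 172 for mt-Nd3 and 170 for mt-Nd5. Among the 6 named protein-coding rows, Cytb had the highest level in both groups. The rows with other names have no annotated length and were not ranked, and some had higher means than Cytb. The rows with near-complete nuclear copies can be listed too low by the weighting, so their place in this order is uncertain.

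The tRNA rows had low means in every group but M+Z+ embryos. Their sequences are short against a 50-base read. The genes of mt-Tf (phenylalanine) and mt-Tr (arginine), shown as the tRNAs with the highest means in M+Z+ embryos, have 68 bases each and hold 19 windows of 50 bases. mt-Ti (isoleucine) and mt-Tq (glutamine) overlap on opposite strands by 3 bases, in capitals, and whether the counting used strand is not stated.
mt-Tf (chrM:1-68, plus strand): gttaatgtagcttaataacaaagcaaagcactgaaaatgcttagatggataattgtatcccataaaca
mt-Tr (chrM:9808-9875, plus strand): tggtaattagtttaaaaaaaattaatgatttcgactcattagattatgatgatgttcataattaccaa
mt-Ti (chrM:3706-3774, plus strand): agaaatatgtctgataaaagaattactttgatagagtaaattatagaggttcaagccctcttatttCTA
mt-Tq (chrM:3772-3842, minus strand): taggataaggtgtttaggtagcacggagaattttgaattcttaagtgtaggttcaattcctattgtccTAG

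In 2C embryos 16 of the 20 tRNA rows reached a mean of 50, all of them through M+Z+ embryos, and 15 of the 16 were at least 4-fold lower in M-Z+ embryos. As above, this count is a description. Over all 20 rows the median mean was 0.772 in M-Z+ embryos and 92.3 in M+Z+ embryos, and the groups' sums were 76.3 in M-Z+ embryos and 4947 in M+Z+ embryos. mt-Tf had 10.6 in M-Z+ embryos and 1146 in M+Z+ embryos (log2 ratio -5.81), and mt-Tr had 7.13 in M-Z+ embryos and 754 in M+Z+ embryos (log2 ratio -5.48). They were followed by mt-Tq, with 0.83 in M-Z+ embryos and 564 in M+Z+ embryos (log2 ratio -5.73). The next were mt-Tk (lysine) with a log2 ratio of -5.37, mt-Ti with -5.31, mt-Tv (valine) with -4.80 and mt-Td (aspartate) with -4.36. In M+Z+ embryos these 4 rows had means of 563 for mt-Tk, 414 for mt-Ti, 286 for mt-Tv and 323 for mt-Td.
The exception was mt-Tp (proline), with 33.4 in M-Z+ embryos and 75.2 in M+Z+ embryos (log2 ratio -0.97), the highest tRNA row of M-Z+ embryos. The log2 ratios of mt-Tl2 (leucine), mt-Tg (glycine), mt-Tn (asparagine), mt-Tc (cysteine), mt-Ts1 (serine), mt-Ty (tyrosine) and mt-Ts2 (serine) lay between -3.59 and -2.81, at means of 65.3 to 148 in M+Z+ embryos. mt-Ta (alanine) was listed at 0 in M-Z+ embryos and had 58.8 in M+Z+ embryos, and it is counted among the 15. The 4 rows under a mean of 50 in this table were mt-Tw (tryptophan), mt-Tt (threonine), mt-Te (glutamate) and mt-Th (histidine), at 13.9 to 39.5 in M+Z+ embryos.

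By strand, the 12 plus-strand tRNA rows summed to 37.4 in M-Z+ embryos and 3896 in M+Z+ embryos, and the 8 minus-strand rows to 38.9 in M-Z+ embryos and 1051 in M+Z+ embryos. The plus-strand rows therefore held the larger part of the tRNA sum in M+Z+ embryos, and the 2 strands were about equal in M-Z+ embryos, where mt-Tp alone supplied most of the minus-strand sum. In oocytes the plus-strand rows summed to 6.21 in Kdm1aZp3 oocytes and 33.8 in control oocytes, and the minus-strand rows to 4.98 in Kdm1aZp3 oocytes and 35.6 in control oocytes.

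No tRNA row reached a mean of 50 in either oocyte group of the oocyte table. The highest in Kdm1aZp3 oocytes was mt-Tk at 4.03 and the highest in control oocytes mt-Tv at 13.4, and 9 rows were listed at 0 in Kdm1aZp3 oocytes and 2 (mt-Td and mt-Tt) in control oocytes. In M+Z+ embryos over control oocytes, 17 tRNA rows reached a mean of 50 through M+Z+ embryos. mt-Tf had 1673 in M+Z+ embryos and 4.28 in control oocytes, and mt-Tr had 1093 in M+Z+ embryos and 1.40 in control oocytes. Because the means of control oocytes are so low, their ratios depend on the 10 added to each mean. mt-Td had 472 in M+Z+ embryos and was listed at 0 in control oocytes, and mt-Tw, the row that reached 50 only in this table, had 57.5 in M+Z+ embryos and 4.41 in control oocytes.

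**Figure D4:**
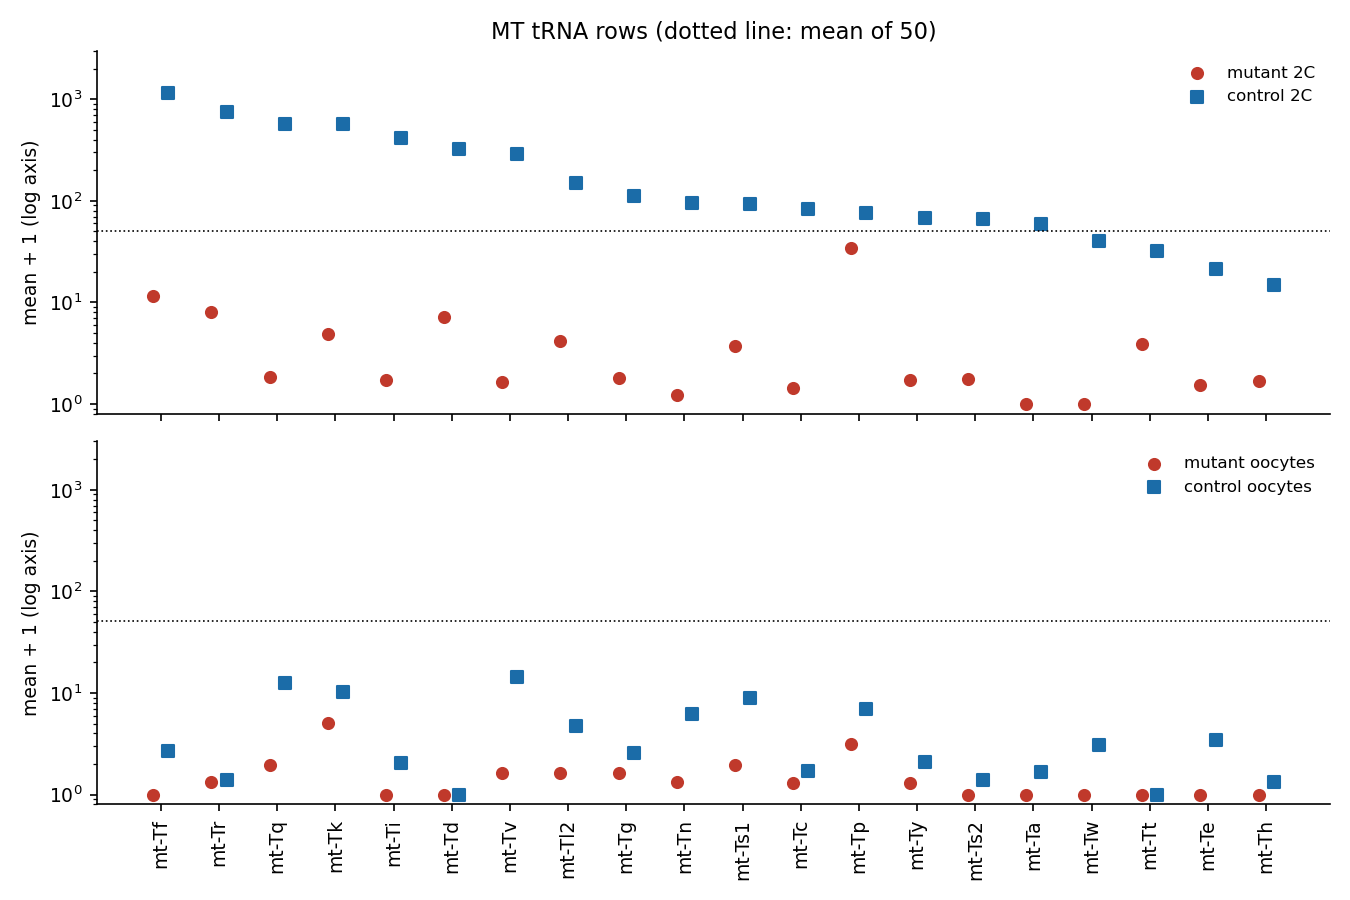
Mean (plus 1, log axis) of the 20 tRNA rows in 2C embryos (top) and oocytes (bottom), mutant in red and control in blue, ordered by the mean in M+Z+ embryos; the dotted line marks a mean of 50. The 16 points above the line are all of M+Z+ embryos, the highest of them mt-Tf at 1146.

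The 6 rows with other names held large parts of the MT sums. The files place them on MT, and apart from Gm10222 they carry sequence record names that no annotation used here assigns to a gene. GU332589 and AK018753 were the rows, besides mt-Rnr1, past the bound in the higher direction in M-Z+ embryos over control oocytes. GU332589 had 145365 in M-Z+ embryos and 13375 in control oocytes (log2 ratio 3.44), and AK018753 had 143534 in M-Z+ embryos and 33502 in control oocytes (log2 ratio 2.10). Both were lower in M-Z+ embryos than in M+Z+ embryos. GU332589 had 142699 in M-Z+ embryos and 720997 in M+Z+ embryos (log2 ratio -2.34), and AK018753 had 140894 in M-Z+ embryos and 1207370 in M+Z+ embryos (log2 ratio -3.10).
The quotient of mt-Rnr1 and GU332589 was 2.26 in M-Z+ embryos and 1.80 in M+Z+ embryos, and 6.33 in Kdm1aZp3 oocytes and 5.63 in control oocytes, the smallest difference between genotypes among the MT rows, singled out after the values were seen. The other 4 rows had lower ratios than these in 2C embryos, 1 of them within the range of the mRNAs (-6.36 to -5.87) and 3 outside it. The log2 ratio of M-Z+ over M+Z+ embryos was -7.27 for AK163440, -6.60 for Gm10222, -6.02 for BC071253 and -5.37 for DQ539915. In Kdm1aZp3 over control oocytes it was -2.87 for DQ539915, -2.51 for AK163440, -2.48 for Gm10222, -1.50 for AK018753, -1.33 for BC071253 and -0.44 for GU332589. In M-Z+ embryos over control oocytes it was -3.10 for BC071253, -2.74 for AK163440, -1.89 for Gm10222 and -1.69 for DQ539915. These 6 rows had log2 ratios of 2.83 (BC071253) to 5.70 (GU332589) in M+Z+ embryos over control oocytes.

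The nuclear partners of the MT genes were counted for the same comparisons. Between M-Z+ and M+Z+ embryos, the nuclear subunits of complex I had 1 gene higher and 13 lower in M-Z+ embryos of 31 with a sufficient mean, those of complex III 0 higher and 3 lower of 8, those of complex IV 0 higher and 3 lower of 12, and those of complex V 0 higher and 7 lower of 15. Over all gene rows 28.1% were lower and 18.1% higher. The share of complex IV that was lower was near that of all gene rows, and 0 of its 12 genes were higher. The median log2 ratios were -1.55 for complex I, -0.98 for complex III, -1.12 for complex IV and -1.98 for complex V. Each was above the -6.10 of the protein-coding MT rows and below the -0.22 over all gene rows. Among the nuclear subunits, Atp5j of the ATP synthase had 5.34 in M-Z+ embryos and 1856 in M+Z+ embryos (log2 ratio -6.93). Ndufc1 of complex I had 0.89 in M-Z+ embryos and 518 in M+Z+ embryos (log2 ratio -5.60). Uqcrfs1, the Rieske protein of complex III, had a log2 ratio of -4.91, and Cox4i1 of complex IV one of -4.31. Complex II, which has no MT subunit, had Sdha higher at 1806 in M-Z+ embryos and 275 in M+Z+ embryos (log2 ratio 2.67) and Sdhb lower (log2 ratio -2.88) among 4 genes, with a median of 1.07.

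Genes of mitochondrial transcription and RNA processing lay past the bound in both directions in 2C embryos, in shares near those of all gene rows (28.1% lower and 18.1% higher). Of 30 such genes with a sufficient mean, 6 were higher and 7 lower in M-Z+ embryos. Their median was 0.51, so the genes named here, picked by size of their ratio, do not stand for the list. Here too a gene could reach the mean through the higher group alone, as Gtpbp3 did. Gtpbp3 was among the lower ones, with 0.16 in M-Z+ embryos and 404 in M+Z+ embryos (log2 ratio -5.35). So was Polrmt, the mitochondrial RNA polymerase, with 18.6 in M-Z+ embryos and 861 in M+Z+ embryos (log2 ratio -4.93). Tfb2m, its initiation factor, had 93.2 in M-Z+ embryos and 1092 in M+Z+ embryos (log2 ratio -3.42). Pnpt1, a mitochondrial RNA-degrading enzyme, had 435 in M-Z+ embryos and 33.5 in M+Z+ embryos (log2 ratio 3.35). Of 12 genes of mtDNA maintenance, 1 was higher and 3 lower. Dguok was higher (log2 ratio 3.00). The lower ones included Ssbp1, which binds single-stranded mtDNA, at a log2 ratio of -4.27, and Peo1 at -2.92. Of 9 regulators of mitochondrial genes, 0 were higher and 5 lower, among them Gabpa, a subunit of NRF-2, with 47.7 in M-Z+ embryos and 7623 in M+Z+ embryos (log2 ratio -7.05). Mitochondrial ribosomal proteins had 6 higher and 25 lower of 70, with a median of -1.19.

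In oocytes the counts of these lists were low, as they were for all gene rows (4.24% higher and 2.57% lower), and are not a result about the lists. In Kdm1aZp3 over control oocytes the nuclear subunits of complex I had 1 higher and 0 lower of 29 and a median of 1.24, complex III had 0 past the bound of 7 and a median of 0.14, complex IV had 1 higher and 0 lower of 12 and a median of 0.85, and complex V had 0 past it of 12 and a median of 0.67. The subunits past the bound were Ndufa9 of complex I, with 1019 in Kdm1aZp3 oocytes and 134 in control oocytes (log2 ratio 2.83), and Cox6c of complex IV, with 382 in Kdm1aZp3 oocytes and 67.8 in control oocytes (log2 ratio 2.34). These medians were above 0, and that of the protein-coding MT rows was -2.92. Genes of mitochondrial transcription and RNA processing had 0 higher and 1 lower of 28, those of mtDNA maintenance 0 past the bound of 10, the regulators 0 of 8, and mitochondrial ribosomal proteins 3 higher and 1 lower of 56.

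**Figure D5:**
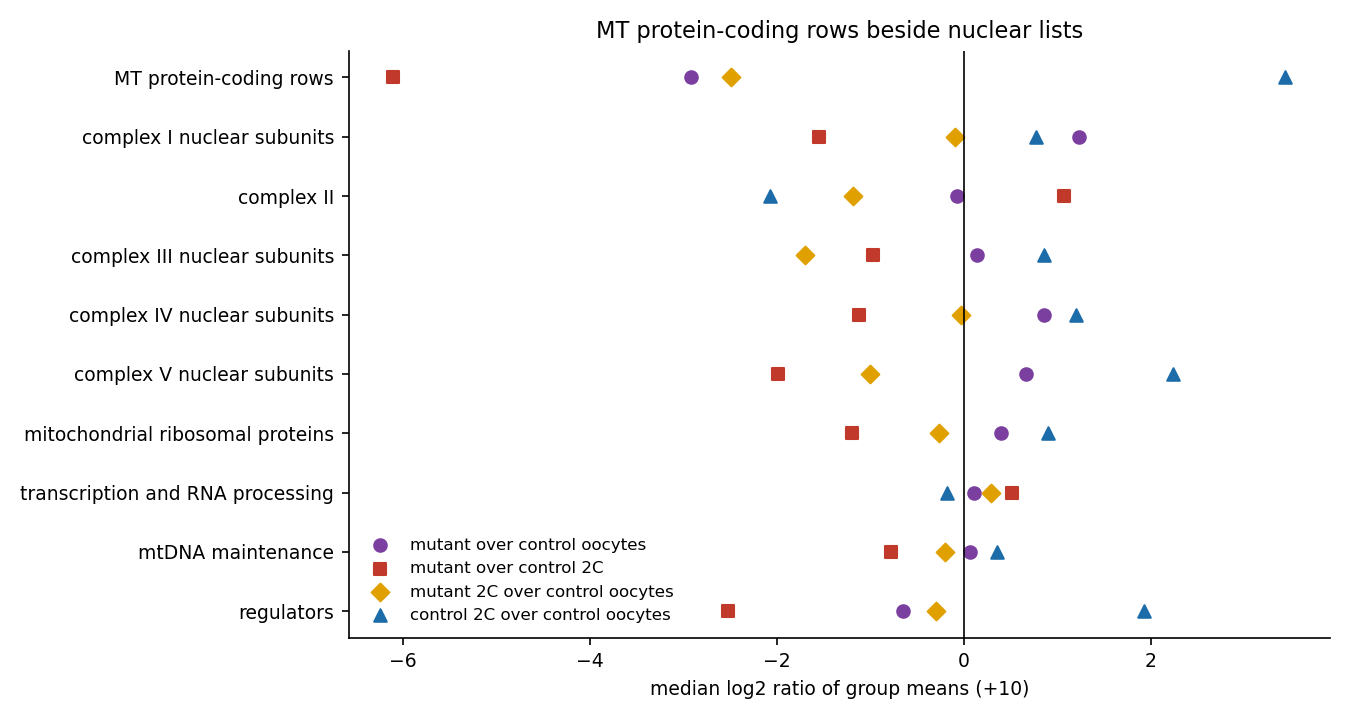
Median log2 ratio of group means (with 10 added to each) over the protein-coding MT rows and over 9 lists of nuclear genes, in the 4 comparisons. Each point is the median over rows where either group mean reached 50, which a row could reach through the higher group alone. The protein-coding MT rows have the lowest median in M-Z+ over M+Z+ embryos (-6.10) and in Kdm1aZp3 over control oocytes (-2.92).

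In M+Z+ embryos over control oocytes, the nuclear subunits had 9 higher and 2 lower of 36 for complex I, 3 higher and 1 lower of 9 for complex III, 3 higher and 0 lower of 12 for complex IV, and 8 higher and 1 lower of 15 for complex V, beside 26.8% higher and 20.9% lower of all gene rows. The shares of complexes I and IV that were higher were near that of all gene rows. Polrmt had 1252 in M+Z+ embryos and 92.6 in control oocytes (log2 ratio 3.62), and Gabpa had 11061 in M+Z+ embryos and 68.5 in control oocytes (log2 ratio 7.14). In M-Z+ embryos over control oocytes, complex I had 2 higher and 10 lower of 30, complex III 0 higher and 2 lower of 7, complex IV 3 higher and 1 lower of 12, and complex V 1 higher and 2 lower of 13, beside 10.8% higher and 13.9% lower of all gene rows. There the genes of transcription and RNA processing had 4 higher and 2 lower of 30, with Mterfd1, of the mitochondrial termination factor family, at 1045 in M-Z+ embryos and 34.3 in control oocytes (log2 ratio 4.57). Mterfd1 was likewise higher in M+Z+ embryos, at 1697 in M+Z+ embryos and 50.7 in control oocytes (log2 ratio 4.81).

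Other values that moved with the groups were read beside these results. Rn45s, the precursor of the nuclear-encoded rRNAs, took 2.83% of the summed means in M-Z+ embryos and 2.02% in M+Z+ embryos, and 5.09% in Kdm1aZp3 oocytes and 5.71% in control oocytes. Of 20 rows of RNAs without a poly(A) tail, 6 had a sufficient mean in 2C embryos, with a median of -0.24. Of these, 0 were higher and 2 lower in M-Z+ embryos, beside 18.1% higher and 28.1% lower of all gene rows. The lower rows were Rmrp and Rn7sk. Rmrp had 1.45 in M-Z+ embryos and 238 in M+Z+ embryos (log2 ratio -4.44), and reached the mean through M+Z+ embryos alone. Rn7sk, which binds the elongation factor P-TEFb, had 101 in M-Z+ embryos and 810 in M+Z+ embryos (log2 ratio -2.89). The 10 oocyte markers summed to 0.960% of all means in M-Z+ embryos and 0.0612% in M+Z+ embryos, and to 0.912% in Kdm1aZp3 oocytes and 0.606% in control oocytes. In M-Z+ embryos 7 of the 10 were at least 4-fold higher and 0 lower, beside 18.1% higher and 28.1% lower of all gene rows.
The 11 markers of the 2C stage summed to 0.0147% in M-Z+ embryos and 0.0195% in M+Z+ embryos. Of 7 with a sufficient mean, 1 was higher and 3 lower past the bound, beside the same 18.1% and 28.1% of all gene rows. The 15 markers of cumulus and granulosa cells summed to 0.0118% in M-Z+ embryos and 0.00361% in M+Z+ embryos, and to 0.0473% in Kdm1aZp3 oocytes and 0.0102% in control oocytes. Cyp19a1, the aromatase, made up nearly all of the sum in both oocyte groups, at 4237 in Kdm1aZp3 oocytes and 957 in control oocytes, and 9 of the 15 markers were listed at 0 in Kdm1aZp3 oocytes and 5 in control oocytes. In 2C embryos the higher sum also came from Cyp19a1, at 1488 in M-Z+ embryos and 5.55 in M+Z+ embryos. The remaining markers with a sufficient mean there were lower, Amhr2 with 2.23 in M-Z+ embryos and 551 in M+Z+ embryos, and Star with 2.95 in M-Z+ embryos and 82.6 in M+Z+ embryos. The markers of sperm summed to 2.47 in Kdm1aZp3 oocytes and 23.8 in control oocytes, and to 0.987 in M-Z+ embryos and 0.787 in M+Z+ embryos. Markers of blood summed to 0 in Kdm1aZp3 oocytes and 1.30 in control oocytes, and to 13.8 in M-Z+ embryos and 29.0 in M+Z+ embryos. The part of these differences in the results for the MT rows was not tested.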

How the data were processed

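Ovulated oocytes and 2C embryos of Kdm1aZp3 females were profiled by RNA-seq (3 libraries each), and controls came from an earlier study. Only the 4 deposited gene tables were used. Their values are scores that the authors made: first reads were cut to 50 bases, aligned with BBMap to mm10 gene and repeat sequences, weighted by the inverse square of the number of loci, median normalized and averaged within groups. Cufflinks and DESeq stand in the submitters' processing notes too, with versions not given in the sources used here. The strand setting of the counting is not stated. Columns with the authors' fold changes, test flags, p-values and q-values were not used, and neither was the table of repeats. No table holds per-library columns, so 0 such columns were left out. Depth is unknown, so no precision can be given, and nothing was tested.

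The log2 ratio of means with 10 added was computed for every row, with a bound of 4-fold, for rows where either group mean reached 50. The counting was checked on the control oocyte means, with known folds put into rows of high mean. It returned the folds put in, and the check did not cover rows with low means. All MT rows were accounted for: protein-coding and rRNA rows were named, of the tRNAs those that reached a mean of 50 in any group, and the nuclear rows with an MT gene's name. From each nuclear list up to 4 genes past the bound whose higher group mean reached 200, by size, could be named. Not all of these are given in the text. Values given for marker genes, for the rows with other names and for mt-Tw, mt-Tt, mt-Te and mt-Th were added to these. The members and lists were chosen with earlier results of these data known. Gene positions and sequences are from GENCODE M21 on GRCm38, and nuclear copies were counted as exact 50-base windows shared with its nuclear transcripts. Alternatives were other bounds, pseudocounts and minimum means, centring, rows with nuclear copies left out, and rows that reached 50 in both groups. Python 3.11.15, numpy 2.4.6, pandas 2.3.3 and matplotlib were used.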

Additional observations from a re-analysis of the deposited data

How the results depend on the processing

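No value per library is in the tables used here, so no replicate error, interval or leave-one-out value could be given, and depth is unknown. No paired analysis was possible because the tables hold 1 mean per group and not the numbered replicates. Of 200 values under other settings, 14 moved by more than 1.5-fold (counts and shares) or by more than 0.58 (medians, log2), and no median changed sign. In Kdm1aZp3 over control oocytes the number of lower MT rows was 7 and became 11 with a 2-fold bound, 1 with an 8-fold bound and 4 without the rows with nuclear copies (chosen after seeing the data), where the median over the protein-coding rows became -2.06 in place of -2.92. In M-Z+ over M+Z+ embryos the number of lower rows was 28 and became 18 with 100 added to each mean, and in M+Z+ embryos over control oocytes the number of higher rows was 30 and became 19. Adding 100 shrinks the ratio of low means by construction. In M-Z+ embryos over control oocytes the 6 lower rows became 10 with a 2-fold bound and 2 with an 8-fold bound, and the 3 higher rows became 1 with an 8-fold bound. Counting rows that reached 50 in both groups, an alternative chosen after seeing the data, gave 13 lower rows in M-Z+ over M+Z+ embryos and 13 higher rows in M+Z+ embryos over control oocytes. Without the rRNA and tRNA rows the MT share became 0.366% in Kdm1aZp3 oocytes, and 2.53% in M-Z+ embryos in both tables that hold them. Over the settings, the median of the protein-coding rows spanned -6.15 to -5.85 in M-Z+ over M+Z+ embryos, 3.31 to 3.44 in M+Z+ embryos over control oocytes, -2.70 to -2.34 in M-Z+ embryos over control oocytes and -2.92 to -2.06 in oocytes. No gene name was on more than 1 MT row, so keeping the highest row of a name could change nothing. Its values are among the 200, as are counts that were 0 and stayed 0, so 14 of 200 understates how far results can move.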
